A study of Mus musculus with 16 samples.

Results

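The H3K4 methyltransferase genes examined here were Kmt2a, Kmt2b, Kmt2c, Kmt2d, Setd1a, Setd1b, Wdr5, Ash2l and Setd7, 9 of the 26180 genes with a curated RefSeq transcription start site (TSS). They were chosen by name, with earlier results of these data known, and the rule used no measured value. Each gene was followed over its whole body extended by 20 kb on each side, and every deposited ChIP-seq peak in that window was counted either at a TSS of the gene (overlapping 1 kb on either side) or elsewhere. CD8+ T cells from the spleens of OT1 mice, whose transgenic T-cell receptor recognises an ovalbumin peptide, were activated for 48 h on plate-bound anti-CD3 at 2 μg/ml with soluble anti-CD28 at 2 μg/ml and IL-2 at 20 ng/ml, and then grown in IL-2 for a further 3 days. Throughout, the cultures held either vehicle (Veh) or GSK2879552 (GSK) at 0.5 μM, a compound that blocks the histone demethylase LSD1 irreversibly. Antibodies to RNA polymerase II (Pol II), LSD1, H3K27ac and the 3 states of H3K4 methylation (H3K4me1, H3K4me2 and H3K4me3) were used under both treatments, which gave 12 libraries with 1 peak list each, besides 4 input libraries without a list, 16 samples in all. The age and sex of the mice are not part of the labels.

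With 1 library per antibody and treatment there was no replicate spread, and no difference between treatments could be tested. Fold and −log10 p, as the peak caller gave them, are set by the depth of a library and of its input, and the lists hold no read numbers. The read numbers that the study gives were lower in GSK than in Veh for H3K27ac and H3K4me2 and higher in GSK for H3K4me1, so list length and depth moved together for these marks. For Pol II they were higher in GSK, whose list was slightly shorter. The part of depth in the results was not tested. List lengths ran from 2751 peaks (H3K27ac, GSK) to 40272 (H3K4me1, GSK). In bulk chromatin, signal from fewer cells and less signal per cell cannot be told apart. The label CD8+ T cell was checked at promoters, where H3K4me3 was listed under both treatments at 6 of 6 CD8+ T cell markers. It was listed at 0 of 4 B cell, 0 of 4 myeloid and 0 of 2 NK cell markers, and at Zbtb7b but not Cd4.

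Methylation of histone H3 at lysine 4 is written mainly by SET-domain enzymes that work inside COMPASS-type complexes. KMT2A and KMT2B (MLL1 and MLL2) act at selected promoters, KMT2C and KMT2D (MLL3 and MLL4) place monomethylation at enhancers, and SETD1A and SETD1B make most of the trimethylation at active promoters. WDR5 and ASH2L belong to the core that all of these complexes share and that their catalysis needs. SETD7 works outside the complexes, adds a single methyl group to H3K4 and also methylates many proteins that are not histones. LSD1 removes mono- and dimethylation from the same lysine, which is part of what the enzymes among these proteins write.

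The sequences under the LSD1 summits show what DNA the changing LSD1 peaks sat on. Each line gives 101 bp centred on a summit, plus strand of GRCm38.p6 (mm10, sequence from RefSeq), in lower case with CG dinucleotides in capitals. The first pair is the intronic LSD1 site of Setd1b, a gene that had no LSD1 peak at its TSS. The other lines are summits of the strongest promoter peak outside annotated exons, shown because that summit differed between Veh and GSK. Where only Veh is given, the GSK summit lay on an exon or its window touched one.
Setd1b intron 6, Veh, chr5:123150040-123150140: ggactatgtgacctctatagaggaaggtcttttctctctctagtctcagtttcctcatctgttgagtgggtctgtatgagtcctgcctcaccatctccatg
Setd1b intron 6, GSK, chr5:123150129-123150229: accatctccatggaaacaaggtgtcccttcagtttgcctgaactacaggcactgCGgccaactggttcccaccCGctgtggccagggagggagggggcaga
Setd1a promoter, Veh, chr7:127776490-127776590: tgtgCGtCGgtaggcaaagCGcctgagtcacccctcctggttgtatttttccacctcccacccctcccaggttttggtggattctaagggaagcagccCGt
Setd1a promoter, GSK, chr7:127777108-127777208: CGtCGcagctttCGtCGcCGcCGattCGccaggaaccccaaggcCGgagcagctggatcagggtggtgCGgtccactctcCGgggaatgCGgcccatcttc
Kmt2c promoter, Veh, chr5:25499358-25499458: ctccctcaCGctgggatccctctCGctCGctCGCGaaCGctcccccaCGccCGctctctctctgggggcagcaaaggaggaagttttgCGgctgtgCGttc
Kmt2c promoter, GSK, chr5:25499676-25499776: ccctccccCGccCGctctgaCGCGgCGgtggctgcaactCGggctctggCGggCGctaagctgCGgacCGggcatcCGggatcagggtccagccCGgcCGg
Wdr5 promoter, Veh, chr2:27514779-27514879: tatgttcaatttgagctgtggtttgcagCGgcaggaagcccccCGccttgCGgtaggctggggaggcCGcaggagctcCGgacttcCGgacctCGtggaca
Ash2l internal promoter, Veh, chr8:25841131-25841231: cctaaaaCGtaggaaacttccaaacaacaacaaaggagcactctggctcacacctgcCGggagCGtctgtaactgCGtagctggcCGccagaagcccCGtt

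H3K4me3, which at active promoters is made mostly by SETD1A and SETD1B, was listed at the TSS of 9 of 9 genes in Veh and of 9 of 9 in GSK. Among all 26180 genes, 50% had an H3K4me3 promoter peak in Veh and 51.1% in GSK. The peaks were broad and shallow. Their median width in the 9 genes was 1913 bp in Veh and 1905 bp in GSK, against 1261 and 1240 bp over all genes with such a peak. The median fold of the strongest peak per gene was 4.13 and 4.03 in the 9 genes, against 5.94 and 6.05 over every promoter peak of all genes. With the strongest peak per gene on both sides, the median fold percentile was 15.7 and 13.1 against 55.8 and 56.7. All 9 lay below the median fold of their own list under both treatments. In a broad list the fold is an average over the called region, so width and fold are not separate measurements, and the part of width in the low folds was not tested.

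Setd1b, a SET-domain subunit for bulk trimethylation, had the lowest, with a fold of 2.22 in Veh and 2.04 in GSK over peaks of 2121 and 2050 bp, percentiles 0.545 and 0.361 of their lists. Kmt2d followed with 3.36 and 3.05, and Kmt2a with 3.50 and 3.24 over the widest peak in Veh, 3003 bp. The core subunit genes Wdr5 (5.51 and 5.22) and Ash2l (5.24 and 5.68) had the highest, with Wdr5 first in Veh and Ash2l in GSK. Setd7 (4.93 and 4.96), Setd1a (4.80 and 4.62), Kmt2b (4.13 and 4.03) and Kmt2c (3.97 and 3.85) lay between. Between neighbours in this order a difference could not be set against any replicate spread. From Veh to GSK, the percentile of the H3K4me3 peak was lower in 7 of 9 genes, with a median difference (GSK minus Veh) of −1.46 percentile points, and higher at Ash2l and Setd7. Over the 12997 genes with H3K4me3 in both, 55.2% were higher in GSK and the median difference was 0.541 points. The differences in the 9 genes, from −7.07 points at Wdr5 to 8.32 at Ash2l, covered a narrow range beside those of LSD1.

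**Figure D1:**
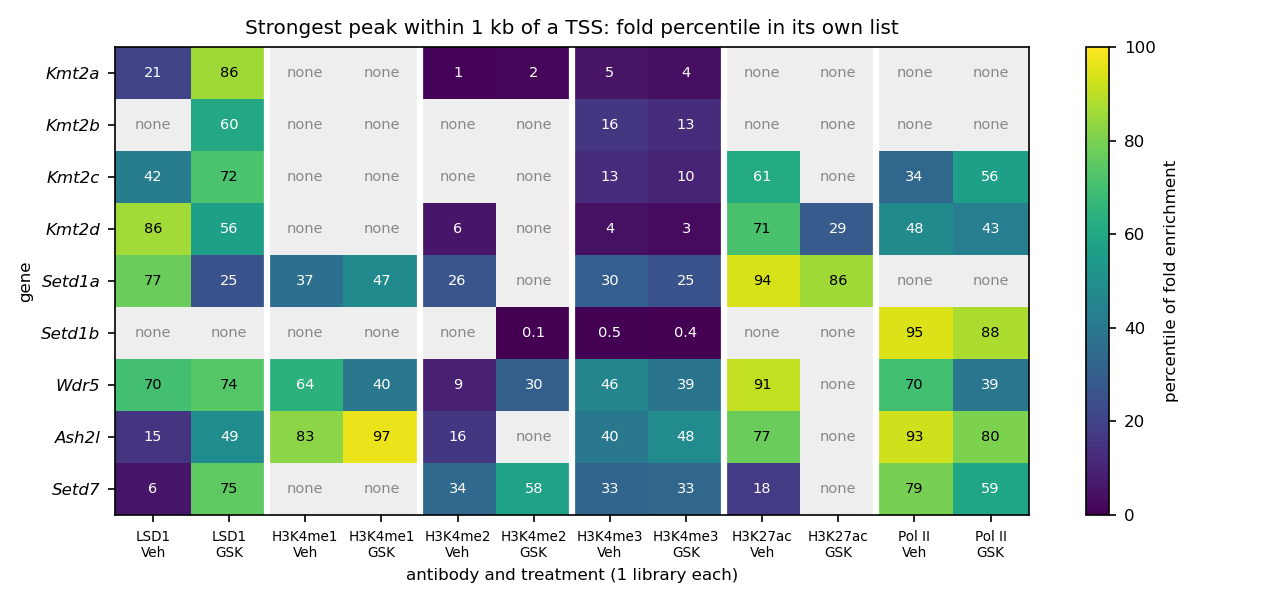
Strongest promoter peak of each gene (rows) in each of the 12 lists (columns, 1 library each), coloured and labelled by the percentile of its fold enrichment among all peaks of that list (0 to 100), with grey cells where no peak lay within 1 kb of a TSS. H3K4me3 was listed at all 9 genes under both treatments at low percentiles, while H3K27ac was listed at 6 genes in Veh and at 2 in GSK.

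LSD1 itself was listed at the promoters of most of these genes. In Veh it had a peak at 7 of 9, and in GSK at 8 of 9, where the share over all genes was 36.3% and 41.6%. Because every one of the 9 promoters carried H3K4me3, a closer background is the 12997 genes with H3K4me3 under both treatments, of which 69.5% had LSD1 in Veh and 79% in GSK, so the 9 genes were near that background. Kmt2a, Kmt2c, Kmt2d, Setd1a, Wdr5, Ash2l and Setd7 had LSD1 under both treatments, Kmt2b in GSK only, and Setd1b under neither. Calls in Veh only made up 7.21% of the H3K4me3 background and calls in GSK only 16.7%.

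The strength of LSD1 at these promoters was reordered between the lists. At Kmt2a the fold was 3.50 in Veh and 6.26 in GSK, from percentile 20.6 to 85.6 of its list. At Setd7 it was 3.03 and 5.52, from percentile 5.53 to 75, and the pair of narrow Veh peaks (283 and 309 bp) was replaced by 1 GSK peak of 1523 bp. Kmt2c (4.01 and 5.34) and Ash2l (3.35 and 4.41) were also higher in GSK, by 29.1 and 33.6 percentile points, and Wdr5 (4.93 and 5.46) by 3.55. Setd1a, with 5.30 in Veh and 3.78 in GSK, and Kmt2d, with 6.0 and 4.70, went the other way, from percentile 77.3 to 25.3 and from 86.3 to 56.3. The Kmt2b peak found in GSK reached 4.84-fold enrichment and −log10 p 10.8, percentile 60.2. Besides these strongest peaks, Kmt2c had a weaker one downstream of the TSS, 2.85-fold at 0.757 kb in Veh and 3.58-fold at 0.422 kb in GSK, Setd1a had another in GSK (3.47), and the other Veh peak of Setd7 was at 2.81. KMT2C and KMT2D are alternative catalytic subunits of the same kind of complex, and LSD1 was higher in GSK at the first and lower at the second. The Kmt2c summits, 625 bp (Veh) and 943 bp (GSK) from its TSS, were 389 and 71 bp from that of the lncRNA gene 4831440E17Rik. The Kmt2c values therefore cannot be assigned to Kmt2c alone.

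In counts, LSD1 was at a higher percentile in GSK at 5 of 7 genes, with a median difference of 29.1 points. Over the 8348 genes with LSD1 in both lists, 64.4% were higher in GSK, with a median of 6.23 points and an interquartile range from −6.79 to 23.9. Kmt2a, Setd7, Ash2l and Kmt2c lay above that range, and Setd1a and Kmt2d below it. Ranking by −log10 p in place of fold left the same 5 genes higher, with a median of 25.1 points.

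**Figure D2:**
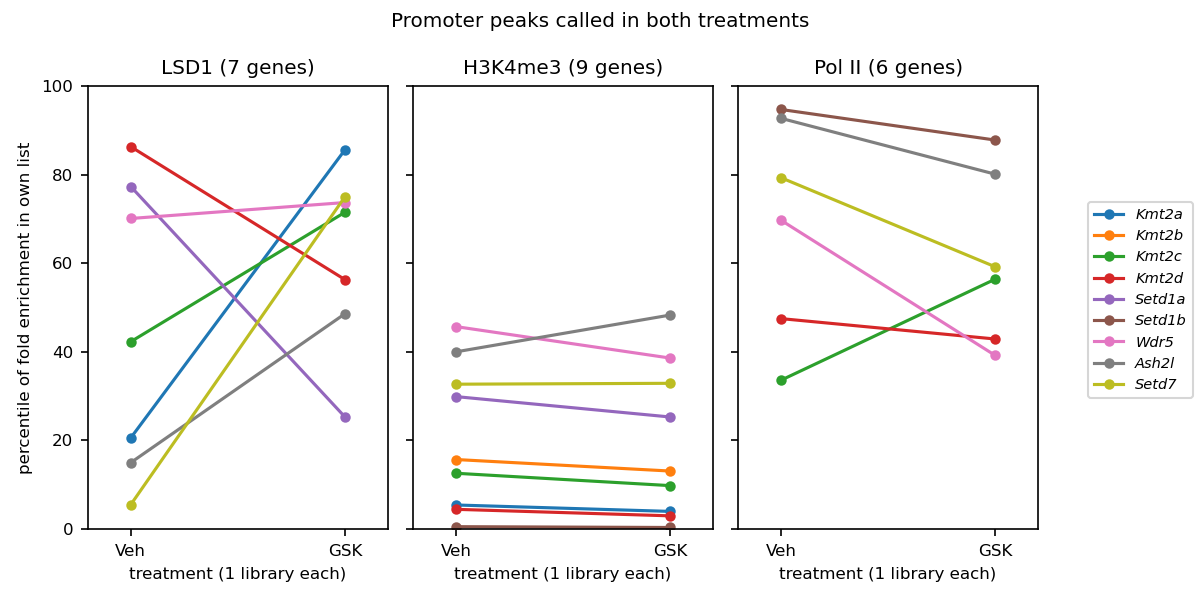
Percentile of fold enrichment within its own list (vertical axis, 0 to 100) of the strongest promoter peak in Veh and GSK (1 library each) for LSD1, H3K4me3 and Pol II, with 1 line per gene called in both. LSD1 lines cross, with Kmt2a going from 20.6 to 85.6 and Setd1a from 77.3 to 25.3, H3K4me3 lines are nearly flat, and 5 of 6 Pol II lines fall.

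The summit of the strongest LSD1 peak also differed in position between the lists. At Setd1a it lay 849 bp upstream of the TSS in Veh and 231 bp upstream in GSK. The 101 bp around it had a GC content of 57.4% with 4 CG dinucleotides in Veh and 67.3% with 11 in GSK, as the sequences printed above show. A weaker GSK peak at Setd1a (fold 3.47 against 3.78) still covered the Veh summit, with its own summit 1.13 kb upstream (49.5% GC, 2 CG dinucleotides). The Setd1a difference thus follows which of its 2 GSK peaks was the stronger. At Ash2l, which has several TSSs, the summit was 394 bp upstream of the TSS at 25840787 in Veh (55.4% GC, 6 CG dinucleotides), and in GSK it lay inside the internal TSS pair, 143 bp upstream of the TSS at 25840457 (76.2%, 12). At Wdr5 it went from 318 bp upstream (63.4%, 7) to 260 bp downstream (79.2%, 17), into the first part of the gene. At Kmt2a it lay 273 and 182 bp upstream, with 73.3% and 77.2% GC, and at Setd7 147 and 59 bp downstream, with 69.3% and 73.3%. Kmt2c was the gene whose summit lay farther from its TSS in GSK, 943 against 625 bp upstream and towards the TSS of a neighbouring lncRNA gene, with a GC content of 77.2% against 66.3%. The Kmt2d summit stayed in place, 983 bp upstream in Veh and 982 bp in GSK.

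Summits were closer to the TSS in GSK at 6 of 7 genes, where 55.2% of the 8348 genes with LSD1 in both were closer, and GC content was higher at 6 of 7, also where 55.2% of those genes were. The median distance of the 7 genes was 394 bp in Veh and 231 bp in GSK, against 245 and 217 bp over all such genes, and the median GC content was 63.4% and 76.2% against 67.3% and 70.3%. The Kmt2d difference was a single base pair. These counts rest on 7 genes and 1 pair of libraries, and take the strongest peak of each gene, also at Setd1a with its 2 GSK peaks.

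**Figure D3:**
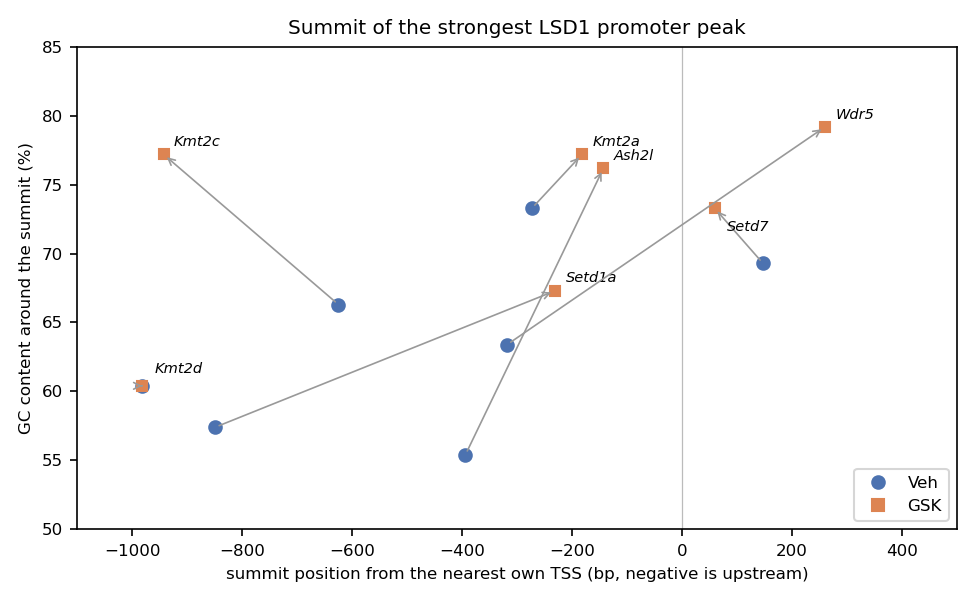
Position of the strongest LSD1 promoter summit from the nearest own TSS (horizontal axis, bp, negative is upstream) and GC content of the 101 bp around it (vertical axis, %), with an arrow from Veh (circle) to GSK (square) for each of the 7 genes called in both. Arrows point upwards at 6 of 7 genes, and the Kmt2d points coincide.

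H3K4me2, a substrate of LSD1, was listed at 6 of 9 promoters in Veh and 4 of 9 in GSK, with 39% and 28.2% of all genes and 73.5% and 53.2% of the genes with H3K4me3 as background. Kmt2a, Wdr5 and Setd7 had it under both treatments. Kmt2d, Setd1a and Ash2l had it in Veh only, and 23.4% of the genes with H3K4me3 did too. Setd1b had it in GSK only, as did 3.09% of those genes, but that call rests on where the peak ended. The GSK peak ran from 123143129 to 123145243 on chromosome 5 and its edge came within 1 kb of the TSS, while the Veh peak at the same place, from 123143242 to 123145157, began just beyond. The Veh calls of Kmt2d and Kmt2a also came from peak edges, with centres 1.26 and 1.01 kb downstream of the TSS. The order of the counts also turned with list length. The Veh list held 15219 peaks and the GSK list 9437, and with the Veh list cut to its 9437 strongest peaks by −log10 p, Kmt2d and Setd7 were left, that is 2 genes in Veh against 4 in GSK. Where H3K4me2 was listed in both, its percentile was higher in GSK at 3 of 3 genes, with folds of 2.90 and 3.54 at Kmt2a, 3.58 and 4.57 at Wdr5, and 4.30 and 5.13 at Setd7. Over all genes with H3K4me2 in both, 38% were higher in GSK. The median difference was 20.8 points in the 3 genes and −4.74 over all genes. At Kmt2a the difference was 0.843 points, from percentile 1.01 to 1.85. Ranked by −log10 p, 2 of 3 genes were higher in GSK, with −0.0336 points at Setd7 and a median of 2.39 points. The called peaks of the 3 genes were narrower in GSK. Widths in Veh and GSK were 694 and 423 bp at Kmt2a, 1380 and 1132 bp at Wdr5, and 1280 and 371 bp at Setd7. As for H3K4me3, fold is an average over the called region, and the part of width in the higher folds was not tested.

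H3K4me1, the other LSD1 substrate, was listed at the same 3 of 9 promoters in Veh and GSK, those of Setd1a, Wdr5 and Ash2l. All genes gave 30.3% and 36.8%, and the genes with H3K4me3 gave 49.2% and 59.5%, with 5.86% in Veh only and 16.2% in GSK only. The MLL-family genes Kmt2a to Kmt2d had none within 1 kb of a TSS. With a window of 2.5 kb all of them had one in GSK, and Kmt2b and Kmt2d also in Veh, so this absence rests on the window. The fold was 3.67 in Veh and 3.78 in GSK at Setd1a, 4.34 and 3.60 at Wdr5, and 4.86 and 5.72 at Ash2l. The Ash2l values came from different TSSs of the gene. At the most upstream TSS the fold was 4.86 in Veh and 5.1 in GSK, while the GSK peak of 5.72 lay near the internal TSSs, where a Veh peak of 4.44 ended just outside the 1 kb window. The percentile was higher in GSK at 2 of 3 genes, with a median difference of 10.6 points, where 54.5% of all genes with H3K4me1 in both were higher with a median of 1.36.

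H3K27ac, a mark of active promoters and enhancers, showed the widest gap in calls. It was listed at 6 of 9 promoters in Veh and 2 of 9 in GSK. The background moved the same way, from 20.5% to 8.58% of all genes and from 41% to 17.2% of the genes with H3K4me3. Kmt2d and Setd1a had it under both treatments. Kmt2c, Wdr5, Ash2l and Setd7 had it in Veh only, where 24.4% of the genes with H3K4me3 did, and none of the 9 had it in GSK only, where 0.669% did. Kmt2a, Kmt2b and Setd1b had none under either treatment. The Veh folds of the 4 genes were 4.10, 5.14, 4.48 and 3.37, with −log10 p of 9.71, 13.2, 8.93 and 7.27 in that order. At Setd1a the fold was 5.44 in Veh and 5.94 in GSK while −log10 p was 20.8 and 12.7, and at Kmt2d the fold was 4.31 and 4.53 while −log10 p was 13.9 and 8.34. Fold was thus slightly higher and −log10 p lower in GSK at both genes that kept a call, and the 2 GSK peaks stood at lower percentiles, with differences of −8.35 points at Setd1a and −42.3 at Kmt2d. No gene of 2 was at a higher percentile in GSK, against 32.1% of all genes with H3K27ac in both, and the medians were −25.3 and −6.70 points. These ranks come from lists of unequal length, with a lowest fold of 1.52 in Veh and 2.26 in GSK, so a peak can stand lower in the GSK list without a lower fold, as at both genes.

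The gap in H3K27ac depended on list length. The Veh list held 7410 peaks and the GSK list 2751. Cut to its 2751 strongest peaks by −log10 p, which put its lowest value at 10.6, the Veh list kept Kmt2d, Setd1a and Wdr5, that is 3 genes against 2 in GSK.

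Pol II was listed at 6 of 9 promoters in Veh and at the same 6 in GSK, those of Kmt2c, Kmt2d, Setd1b, Wdr5, Ash2l and Setd7. The background was 29.3% and 24.9% of all genes, and 58% and 49.2% of those with H3K4me3, with 13.9% in Veh only and 5.15% in GSK only. Kmt2a, Kmt2b and Setd1a had H3K4me3 and no Pol II peak under either treatment. The fold was lower in GSK at 5 of the 6 genes. It was 8.09 in Veh and 5.20 in GSK at Setd1b, 7.46 and 4.51 at Ash2l, 5.58 and 3.69 at Setd7, 4.81 and 3.32 at Wdr5, and 3.87 and 3.39 at Kmt2d, against 3.46 and 3.60 at Kmt2c. The Setd7 values are those of a peak 0.993 kb downstream of its TSS in Veh and 1 kb in GSK. That peak lay nearer to the TSS of the neighbouring transcript 5031434O11Rik. A weaker peak nearer to the Setd7 TSS had 4.40 in Veh and 3.49 in GSK, at percentiles 62.4 and 53.2. As percentiles the same 5 were lower, with a median difference of −9.76 points over the 6 genes. Over the 5759 genes with Pol II in both, 48.2% were higher in GSK and the median was −0.188 points, with an interquartile range from −9.34 to 7.57. Wdr5 (−30.6), Setd7 (−20.1, by the peak nearer to 5031434O11Rik) and Ash2l (−12.6) lay below that range and Kmt2c (22.8) above it. By −log10 p, Kmt2d also ranked higher in GSK, so 4 of 6 genes were lower and the median was −6.65 points. The Setd1b call came from the edge of a peak whose summit lay 1.15 kb upstream of the TSS in Veh and 1.14 kb in GSK.

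Ash2l has 3 curated TSSs on chromosome 8, and the marks were split among them. At the most upstream, at 25847694, H3K4me1 was the one mark listed, centred 0.502 kb upstream in Veh and 0.62 kb in GSK. The internal pair of TSSs, at 25840787 and 25840457, held LSD1, H3K4me3 and Pol II under both treatments, in Veh also H3K27ac and H3K4me2, and in GSK also the H3K4me1 peak of 5.72. Setd7 shares its promoter with the antisense transcript 5031434O11Rik. The TSS of that transcript lies 838 bp away inside Setd7, and it runs towards the Setd7 TSS. Kmt2b lies 654 bp from Mir3569. The TSS of the lncRNA gene 4831440E17Rik lies 1014 bp from that of Kmt2c, and 7 Kmt2c promoter peaks came within 1 kb of it, the strongest LSD1 peaks, H3K4me3, H3K27ac and Pol II included. The Kmt2c LSD1 summit was 389 bp from that TSS in Veh and 71 bp in GSK, and the LSD1 summit counted for Kmt2b in GSK was 68 bp from that of Mir3569. The upstream H3K4me1 peak of Ash2l in GSK came within 1 kb of a TSS of Kcnu1. Promoter peaks of these genes cannot be assigned to one partner.

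Seen across the 12 lists, Wdr5 carried a promoter peak in 11, Ash2l in 10, Kmt2d, Setd1a and Setd7 in 9, Kmt2c in 7, Kmt2a in 6, Setd1b in 5 and Kmt2b in 3. No pair of the 9 genes had the same 12 calls. The pattern of Kmt2a was shared with 243 other genes (0.928% of all), that of Kmt2c with 223, Wdr5 with 220, Kmt2d with 175, Setd7 with 165 and Ash2l with 132. Setd1a and Setd1b, both catalytic subunits for bulk trimethylation, had rarer patterns, shared with 4 and 2 other genes, and Kmt2b shared its pattern with 30. Of the 5 calls of Setd1b, Pol II in both and H3K4me2 in GSK came from peak edges. They were lost when the peak centre had to lie within 1 kb, so the rarity of its pattern rests on them. The H3K4me1 calls of Wdr5 in both and the Veh H3K4me2 calls of Kmt2a and Kmt2d were lost in the same way. Of the other H3K4 methylation genes, Pagr1a was most like Kmt2b, Wdr82 most like Ash2l, and Kmt2e most like Kmt2d, each with 1 of the 12 calls different. Dpy30 and Kmt2e were most like Kmt2c, Paxip1 and Prdm9 most like Wdr5, and Bod1, Smyd2 and Smyd3 most like Kmt2a, also with 1 call different. Kdm6a differed from Setd7 in 2 calls, Men1, Prdm9 and Psip1 from Setd1a in 3, and Hcfc1, Kdm6a and Smyd3 from Setd1b in 4.

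The same calls were made for 20 further genes of H3K4 methylation, the other complex subunits and partners and further SET-domain genes. H3K4me3 was listed under both treatments at 17 of 20 and under neither at Ncoa6, Ash1l and Smyd1. LSD1 was listed in both at 9, in GSK only at 8, in Veh only at 0 and in neither at 3. The GSK-only genes were Rbbp5, a core subunit, Cxxc1, the CpG-binding subunit of the SETD1 complexes, Men1, the menin gene, and Hcfc1, Paxip1, Pagr1a, Tasp1 and Smyd3. H3K27ac was listed in both at 3, in Veh only at 8 and in GSK only at Tasp1, the gene of the protease that cleaves KMT2A. Pol II was listed in both at 7, in Veh only at 4 and in GSK only at Men1. H3K4me2 was listed in both at 8, in Veh only at 2 and in GSK only at Kdm6a, and H3K4me1 in both at 8 and in GSK only at 3. The shares of GSK-only LSD1 and Veh-only H3K27ac calls among the genes with H3K4me3 were 16.7% and 24.4%, as given above.

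Away from their own TSSs, the 9 gene windows, 876 kb in all, held 15 LSD1 peaks in Veh and 15 in GSK, 32 and 33 of H3K4me1, 14 and 7 of H3K4me2, 15 and 15 of H3K4me3, 9 and 7 of H3K27ac, and 16 and 8 of Pol II. Per 100 kb, that was 1.71 LSD1 peaks under both treatments, where the genes with H3K4me3 had 1.47 in Veh and 1.40 in GSK. The Pol II density was 1.83 in Veh and 0.914 in GSK against 0.961 and 0.851, the H3K27ac density 1.03 and 0.799 against 0.619 and 0.215, and the H3K4me2 density 1.60 and 0.799 against 1.25 and 0.739, so H3K4me2 was lower in GSK in the background too. H3K4me1 had 3.65 and 3.77 against 3.00 and 3.51, and H3K4me3 1.71 and 1.71 against 1.21 and 1.30. Many of these peaks belonged to neighbours. Of 57 merged regions, 16 lay at the TSS of another gene, 8 of them around Kmt2b in its gene-dense stretch of chromosome 7.

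**Figure D4:**
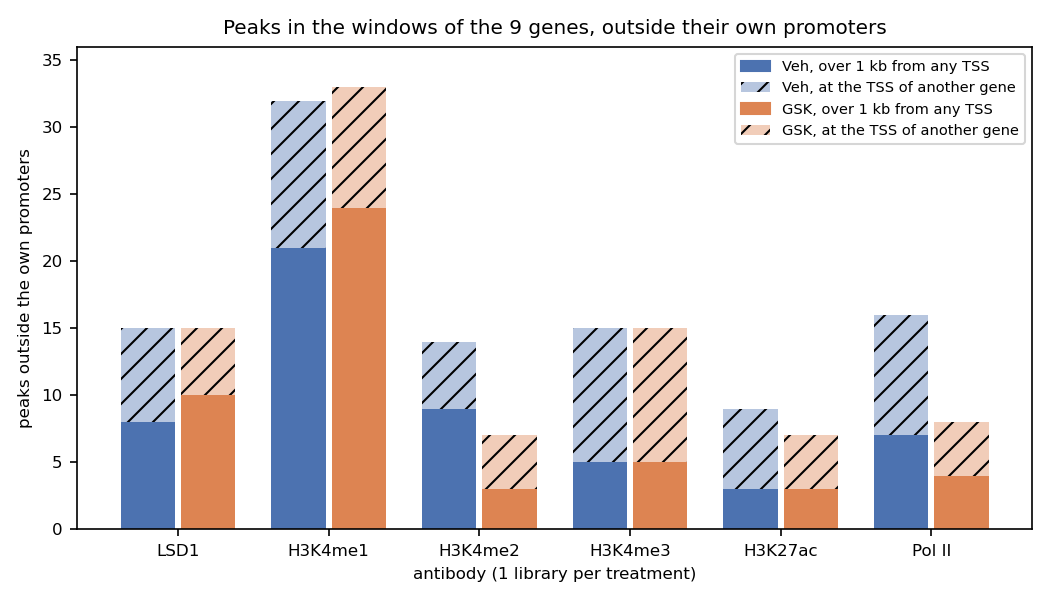
Number of peaks (vertical axis) in the windows of the 9 genes but outside their own promoters, for each antibody in Veh (blue) and GSK (orange), 1 library each, with hatched parts at the TSS of another gene. LSD1 and H3K4me3 stood at 15 peaks under both treatments, while Pol II went from 16 to 8 and H3K4me2 from 14 to 7.

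Calls at the 57 regions differed by mark. H3K4me3 was listed in both treatments at 15 regions and in a single treatment at 0. LSD1 was listed in both at 8, in Veh only at 7 and in GSK only at 7. H3K4me1 was listed in both at 25, in Veh only at 4 and in GSK only at 8. H3K4me2 was in both at 7, in Veh only at 7 and in GSK only at 0, H3K27ac in both at 7 and in Veh only at 2, and Pol II in both at 5, in Veh only at 10 and in GSK only at 2. Of the regions with a peak of the mark, both treatments had one at 8 of 22 for LSD1, 25 of 37 for H3K4me1, 7 of 14 for H3K4me2, 15 of 15 for H3K4me3, 7 of 9 for H3K27ac and 5 of 17 for Pol II. Over regions built the same way around the genes with H3K4me3, the shares were 41.5%, 66.5%, 48%, 87.9%, 32.3% and 35.1% in that order. LSD1, H3K4me1, H3K4me2 and Pol II were thus near the background. Among the Pol II peaks, 4 in Veh and 2 in GSK lay in the Kmt2c window of 267 kb, none at the same place, with −log10 p between 3.05 and 4.43, close to the cutoff of 3.00.

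The region with peaks in most lists lay inside Setd1b. In intron 6 and the adjoining exon, from 123149825 to 123152323 on chromosome 5 and centred 8.88 kb downstream of the TSS, peaks were present in all 12 lists, which was so at no other of the 57 regions and at none of the 9 promoters. No curated TSS lies in this region, which is a chain of overlapping peaks and not a single shared site. In Veh the LSD1 peak ran from 123149859 to 123150510. It overlapped neither the H3K27ac peak (123150814 to 123151179) nor the H3K4me1 peak (123151541 to 123152270). In GSK the LSD1 peak ended at 123151137, beyond the H3K27ac peak, and the H3K4me1 peak began at 123151582. Among the Veh LSD1 peaks in the 9 gene windows outside the own promoters, the one in this region had the highest −log10 p. It had 7.31-fold enrichment and −log10 p 20.4, percentile 94.9 of the whole list by −log10 p, against 6.18 and 15.2 in GSK. H3K27ac had a fold of 6.08 in Veh and 5.41 in GSK, with −log10 p of 24.8 and 10.9, and Pol II had 5.53 and 4.63. H3K4me3 had 4.78 and 4.80. H3K4me1 had 4.03 in Veh and 4.83 in GSK, with −log10 p of 16.2 and 27.8. H3K4me2 had 4.05 and 4.30 in a peak of 1069 bp in Veh and 407 bp in GSK. The H3K27ac and Pol II peaks stood at percentile 97.3 and 78.7 of their Veh lists and 71.8 and 81.7 of their GSK lists. By contrast the annotated TSS of Setd1b carried no LSD1 and no H3K27ac, and its H3K4me3 fold was less than that of the intronic region under both treatments. By −log10 p the order differed between treatments, with 26.3 at the TSS against 23.4 in the intron in Veh, and 20.5 against 26.1 in GSK. The H3K4me3 peak at the TSS was also wider, 2121 against 1745 bp in Veh and 2050 against 1769 bp in GSK. The LSD1 summit in the intron shifted by 89 bp between treatments. The window around it held 0 CG dinucleotides in Veh and 2 in GSK, as the first pair of printed sequences shows.

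**Figure D5:**
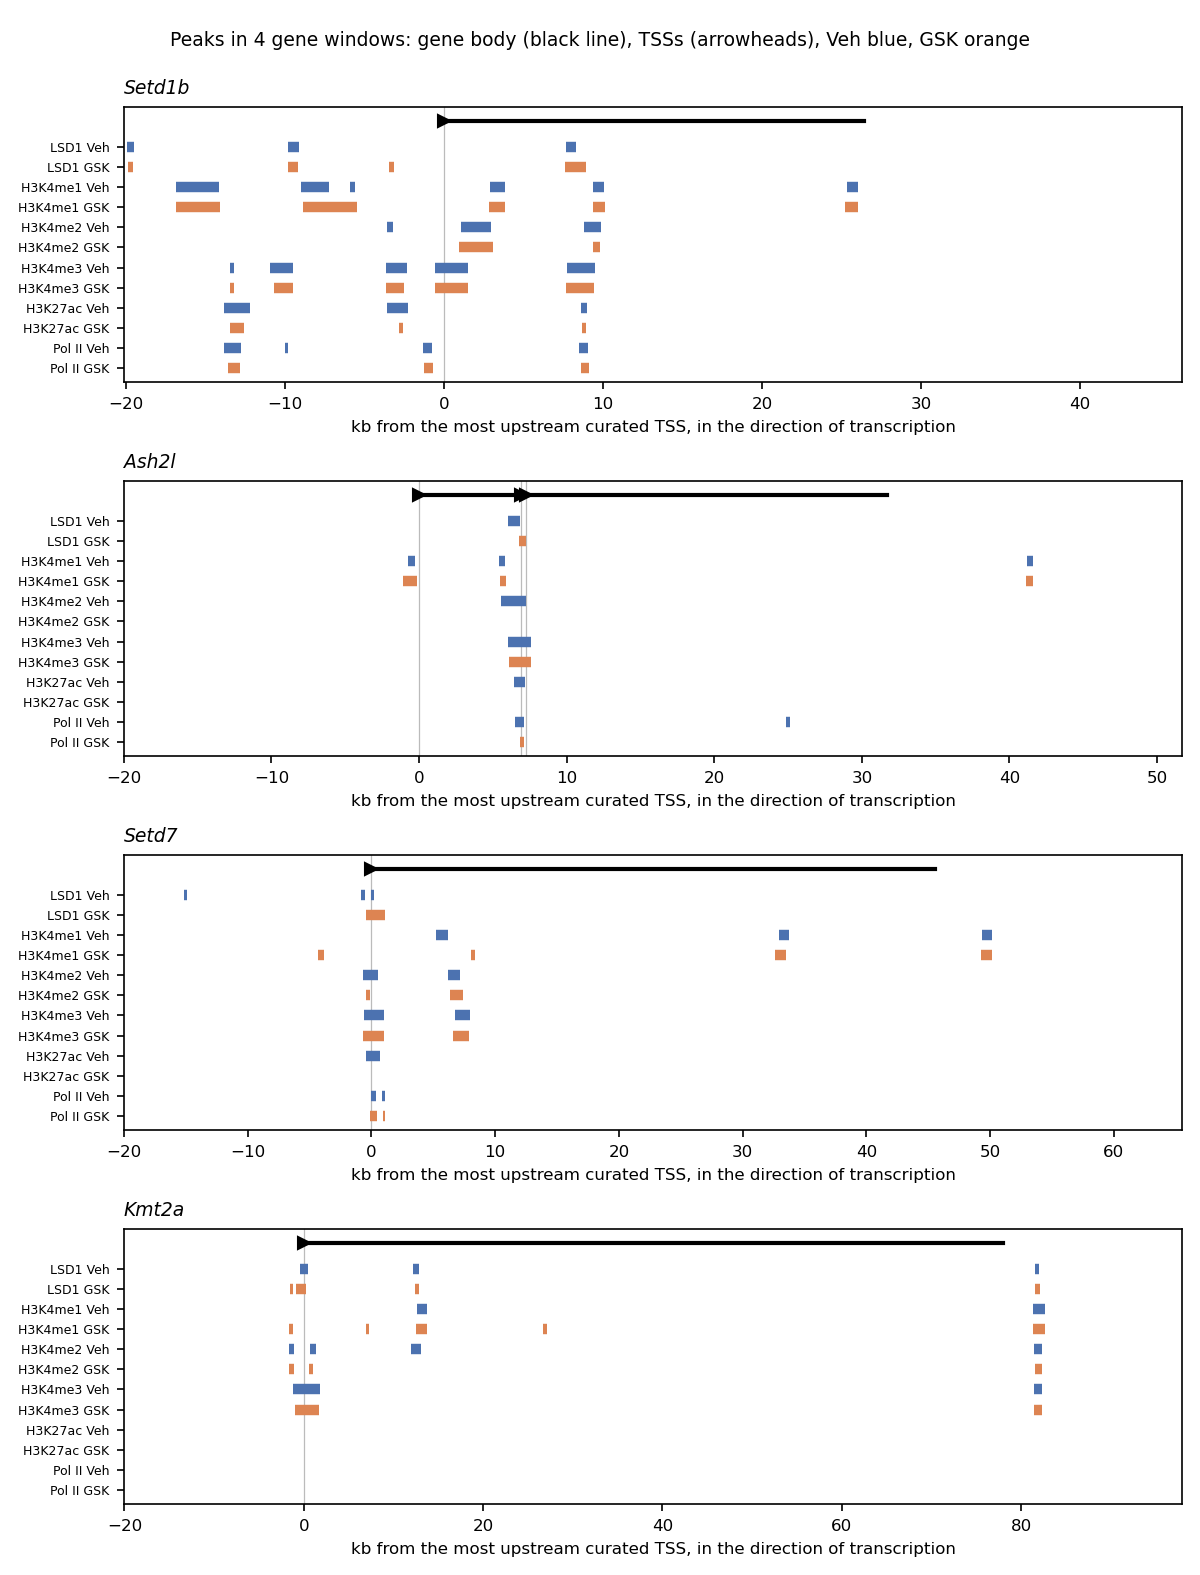
Peaks of the 12 lists (rows, Veh blue, GSK orange) over Setd1b, Ash2l, Setd7 and Kmt2a, with the gene body as a black line, TSSs as arrowheads and distance from the most upstream curated TSS in kb in the direction of transcription (horizontal axis). The Setd1b panel shows peaks of all 12 lists near 8.88 kb inside the gene, and the Ash2l panel shows H3K4me3, LSD1 and Pol II at the internal TSS pair.

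Other regions without a curated TSS also carried promoter-type marks. In Setd7, intron 1 held H3K4me3 and H3K4me2 under both treatments at 7.10 kb, with H3K4me3 folds of 4.92 in Veh and 4.70 in GSK and H3K4me2 folds of 3.40 and 4.57, and neither LSD1 nor Pol II. Upstream of Kmt2d, at 23 kb, LSD1 (fold 5.18 in Veh and 3.75 in GSK) lay with H3K4me3 (7.13 and 7.16), with H3K4me2 in Veh only. Upstream of Setd1b, at 13 kb, H3K4me3, H3K27ac and Pol II were listed under both treatments and LSD1 under neither, and at 2.96 kb H3K4me3 and H3K27ac were listed in both, H3K4me2 in Veh only and LSD1 in GSK only, the last with a fold of 3.20. A predicted transcript of Rhof starts at that region.

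Ranked by −log10 p, the first peaks outside the own promoters mostly lay at neighbours, and other peaks could have a higher fold. For H3K4me3 and Pol II they lay at the Prkag1 TSS, 40.1 and 39.7 kb from that of Kmt2d. The H3K4me3 peak there had a −log10 p of 138 in Veh and 133 in GSK at folds of 8.15 and 7.94, and the Pol II peak 16.1 and 13.6. For LSD1 in GSK the first was 9.70 kb upstream of Setd1b at Rhof, with a −log10 p of 20.1 at a fold of 5.69, where the Veh fold was 5.22. For H3K4me2 it lay at Tmem25 beyond the end of Kmt2a in Veh (−log10 p 11.6, fold 5.71) and at Orai3 upstream of Setd1a in GSK (14.6 and 5.87). For H3K27ac in GSK it lay at Psenen and U2af1l4 near Kmt2b (11.4 and 5.44). For H3K4me1 it was in the last exon of Kmt2d in Veh (18.8 and 4.58) and at the intronic region of Setd1b in GSK.

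Some peaks had no counterpart of the same antibody within 1 kb in the other treatment. By −log10 p, the first of LSD1 were a GSK peak 35.9 kb downstream of the Kmt2b TSS, at Hspb6 and Proser3 (−log10 p 10.7, fold 5.50), a Veh peak at Zbtb32, 4.96 kb upstream of Kmt2b (10.7 and 4.42), and a Veh peak at Orai3, 7.64 kb upstream of Setd1a (6.51 and 3.93). At Zbtb32 and Orai3 the H3K27ac peak was also listed in Veh only, with −log10 p of 7.95 and 6.70 and folds of 2.84 and 3.66. For Pol II, by the same ranking, they were Veh peaks at Lin37 near Kmt2b (11.1 and 5.52), at Gm13421 beyond Wdr5 (8.30 and 4.93) and at Rhof (5.79 and 3.23). For H3K4me2 they were Veh peaks upstream of Setd1b (9.96 and 2.92), in intron 1 of Kmt2a (9.74 and 4.33) and at Gm13421 (7.11 and 4.56). For H3K4me1 they were GSK peaks in intron 1 of Kmt2c (8.76 and 5.58, and 8.73 and 4.28) and a Veh peak at Rhebl1 upstream of Kmt2d (8.65 and 4.43).

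The other LSD1 peaks away from the own promoters were at the end of Kmt2a at Tmem25 (fold 5.01 in Veh and 5.70 in GSK), in intron 1 of Kmt2a (6.36 and 5.01), and 1.38 kb upstream of Kmt2a in GSK only (3.38). Around Kmt2b they were in Veh only, 21.8 kb downstream of the TSS (3.90) and 19.4 kb upstream (3.74). Around Kmt2d they were at Prkag1 (4.27 and 4.92), at Rhebl1 (3.88 and 4.59) and in the last exon in GSK only (3.33). Downstream of Setd1a there was 1 peak in Veh only at Hsd3b7 (4.15) and there were 2 in GSK only (3.89 and 2.92). The peak 19.8 kb upstream of Setd1b was listed in both (5.28 and 5.91). Downstream of Wdr5 a Veh peak (2.81) and a GSK peak (3.47) lay at different places, and Setd7 had 1 upstream peak in Veh (3.00). Kmt2c and Ash2l had none in either list.

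Enhancers were delimited after the study's definition, as merged H3K4me1 and H3K4me2 peaks of both treatments without H3K4me3 and over 2.5 kb from a TSS, which gave 26676 over the genome and 16 in these windows. The set was rebuilt from the deposited lists with the TSSs used here and is not the study's own set. H3K4me1 and H3K4me2 chose these regions, so their calls are a description. H3K4me1 was listed in both at 9 of 16, in Veh only at 1 and in GSK only at 6, where the genome-wide shares were 67.1%, 9.87% and 22.5%. LSD1 was listed in both at 1, in Veh only at 1 and in GSK only at 2, with 7.37%, 10.1% and 4.58% genome-wide. H3K27ac was listed at 0 of 16, where 3.4% of all enhancers had it. Pol II was also listed at 0 of 16, a count with no genome-wide share beside it. Setd7 had 5 of the 16, Kmt2a 3, Kmt2c, Setd1a and Setd1b 2 each, Kmt2b and Wdr5 1 each, and Kmt2d and Ash2l 0. The enhancer with LSD1 in both lists lay in intron 1 of Kmt2a, 12.8 kb from the TSS and 1876 bp wide. There H3K4me1 had a fold of 4.07 in Veh and 4.17 in GSK with −log10 p of 18.3 and 23.3, LSD1 had 6.36 and 5.01, and H3K4me2 was listed in Veh only. The GSK-only H3K4me1 calls lay in intron 1 of Kmt2a (2), Kmt2c (2) and Setd7 (1) and upstream of Setd7 (1), over 291 to 594 bp, and none of them carried LSD1 in either list.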

How the data were processed

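ChIP-seq peak lists of mouse CD8+ T cells were used, 1 per antibody and treatment. Per the study's methods, the authors aligned reads with Bowtie2, kept those with 1 place in mm10, took out duplicates by Samtools, and ran MACS2 on each library against input (p-value cutoff 0.001). Summits are given in the LSD1 and Pol II lists (narrow peaks) and not in the others (broad peaks). The deposited lists give fold enrichment over input as a ratio and significance as −log10 p and −log10 q. No read numbers are in the lists, so depth was not computed.

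Peaks were joined to 31647 TSSs of curated RefSeq transcripts of GRCm38.p6 in Python 3.11.15 (numpy 2.4.6, pandas 2.3.3, matplotlib 3.10.9). An overlap of 1 bp counted, and all peaks lay within the chromosome lengths of that build. A percentile ranks the fold of a peak within its own list. Distances are from the summit in narrow lists and from the centre in broad lists. The overlap code was tested on simulated data. Because each group held 1 library, no test was run, and counts stand beside the same share over all genes.

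The 9 genes, the 20 further genes and the alternatives were chosen with earlier results of these data known. All 9 genes are named with their promoter peaks, as are all LSD1 peaks outside promoters, and for each antibody the peak outside promoters with the highest −log10 p per treatment and up to 3 without a counterpart. The background of genes with H3K4me3, the merged regions and their background, the enhancer set and the summit sequences were added after the peaks had been seen. The 4 inputs have no list and entered no comparison. Alternatives were promoter windows of 500 bp and 2.5 kb, a −log10 p of at least 10, lists of equal length, peak centres, all RefSeq transcripts, a 10 kb flank, leaving out peaks at any TSS, and ranking by −log10 p.

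The result of 1 further marker list is not reported here.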

Additional observations from a re-analysis of the deposited data

How the results depend on the processing

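No paired analysis was possible because replicate numbers are shared by the inputs alone, which have no peak list, and with 1 library per group none could be left out. Of 126 alternative values for 30 results, 85 stayed within 1.5 times of the value given above (medians, within the spread among the genes), 41 did not, 38 of these being lower. The order of Veh and GSK turned with lists of equal length for H3K4me2 promoters (2 and 4) and for H3K4me1 peaks outside promoters (32 and 29). The cause was not tested beyond the construction of each alternative. H3K4me3 was listed at 9 of 9 promoters throughout. With a −log10 p of at least 10, promoters with a peak (Veh, GSK) were 2 and 5 for LSD1, 0 and 1 for H3K4me1, 1 and 1 for H3K4me2, 3 and 1 for H3K27ac, and 3 and 1 for Pol II, and peaks outside promoters were 6 and 5 for LSD1, 9 and 11 for H3K4me1, 6 and 2 for H3K4me2, 5 and 3 for Pol II, and 3 for H3K27ac in GSK. With a 500 bp window, H3K4me1 was at 1 and 1 promoters, H3K4me2 at 2 in GSK, H3K27ac at 1 in GSK and Pol II at 3 in Veh. With 2.5 kb, H3K4me1 was at 5 and 7, and with all RefSeq transcripts at 5 in Veh. With lists of equal length, H3K27ac was at 3 promoters in Veh. Without peaks at any TSS, peaks outside promoters were 8 for LSD1 in Veh, 21 for H3K4me1 in Veh, 9 and 3 for H3K4me2, 5 and 5 for H3K4me3, 3 and 3 for H3K27ac, and 7 and 4 for Pol II. A 10 kb flank left 5 Pol II peaks in GSK. Ranked by −log10 p, the H3K4me2 median difference was 2.39 points. A missing peak says that none passed the caller at the depth of that library, not that the mark was absent.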
